A study of Mus musculus with 2 samples.

Results

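Nucleotide-hydrolysing enzymes of the cell surface and the secretory pathway were followed on the 2 arrays of the series through 9 genes: Entpd1, Entpd2, Entpd4, Entpd5, Entpd6, Enpp1, Enpp2, Enpp3 and Nt5e. All non-control probes with one of these names in the array design were taken, which gave 17 probes for the 9 genes, out of 28778 gene names on the array. Each array measured cells derived from N31, a line of mouse neural progenitors (strain 129/Ola) that descends from induced pluripotent stem cells and carries Oct3/4, Sox2, Klf4 and c-Myc under the control of doxycycline. The EGFP line carried a transgene for the green fluorescent protein EGFP and the Pax6 line one for the transcription factor Pax6, each driven by the CAG promoter and inserted with the Tol2 transposon. Both had been in doxycycline for 24 h, there was 1 array for each, and cells without doxycycline were not analysed here. By the design text, the cells had visibly changed shape by then in the EGFP line only. The set was put together with the differences between these arrays already known, above all those of Entpd1 and Enpp1, so the differences are given as a description and no test was made.

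Cells release ATP and other nucleotides, which act on P2X and P2Y receptors, and enzymes outside the cell break them down in steps. NTPDases, encoded by Entpd genes, remove phosphates from nucleoside triphosphates and diphosphates, the NPP enzymes of the Enpp genes cut ATP to AMP and pyrophosphate, and the ecto-5′-nucleotidase of Nt5e turns AMP into adenosine, which acts on its own receptors. In the developing and adult brain such enzymes are found on neural progenitors, glia, vessels and microglia, and the surface enzymes of Entpd1 and Nt5e are also known as CD39 and CD73.

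On the Pax6 array 4 of the 9 genes were at least 2-fold higher than on the EGFP array, none was at least 2-fold lower, and 5 lay within 2-fold. The 4 were Entpd1 (12.7-fold), Enpp1 (11.8-fold), Enpp2 (at least 9.89-fold) and Enpp3 (at least 4.41-fold). Enpp2 and Enpp3 were well above background only on the Pax6 array, so the filter fixed their direction. Of the 7 genes measured on both arrays, 2 were at least 2-fold higher and 0 lower. Nt5e was 1.54-fold higher, and the genes of the secretory-pathway enzymes, Entpd4, Entpd5 and Entpd6, lay within 1.17-fold. Over all 19250 genes well above background on at least 1 array, 4.77% were at least 2-fold different, 2.35% higher and 2.43% lower on the Pax6 array, shares from which nothing is read for genes picked on this contrast. The median log2 difference (Pax6 minus EGFP) of the 9 genes was 0.62, against -0.01 over all genes. The higher share among all 2-fold genes was 49.2%, but 59.3% after scaling by each array's median and 62.0% after normexp background correction.

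**Figure D1:**
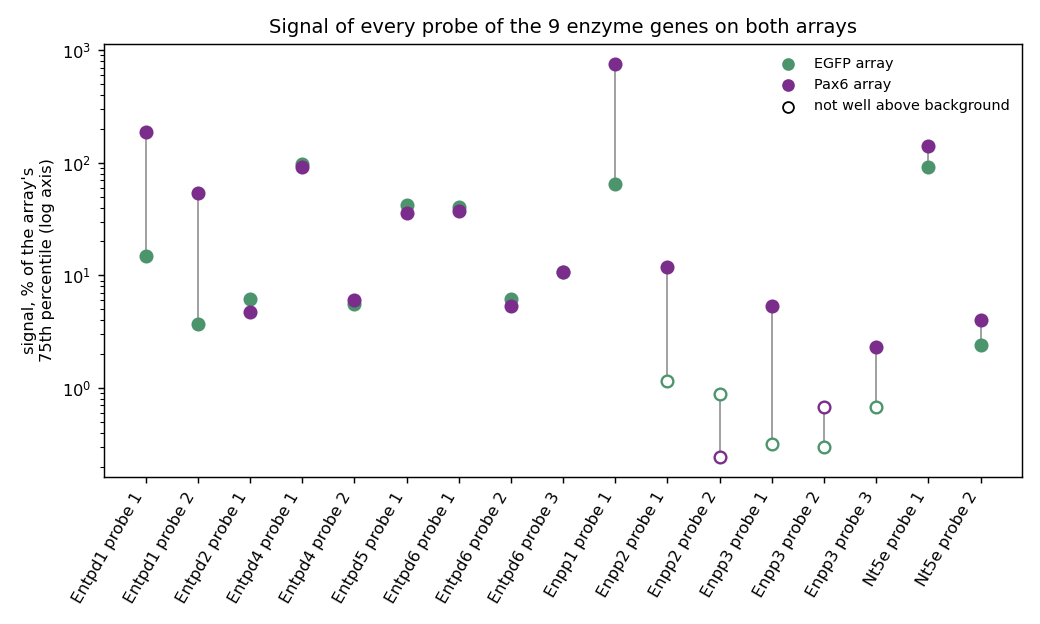
Scaled signal of each of the 17 probes on the EGFP and the Pax6 array, as a percentage of the array's 75th percentile on a log axis; open symbols were not well above background, and a line joins the values of 1 probe. The 2 probes of Entpd1 and the probe of Enpp1 are filled on both arrays and far apart, whereas those of Entpd2, Entpd4, Entpd5 and Entpd6 nearly coincide.

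Signals are the scanner software's background-subtracted intensities, and folds were taken after dividing each array by its 75th percentile signal (854 with EGFP, 991 with Pax6). "With EGFP" and "with Pax6" name the array of each line, in that order where signals stand in pairs. The value after ± is the software's measurement error carried to the log2 difference, with a median of 0.20 over genes measured on both arrays. It covers neither cultures nor labelling. There is 1 array per line, so no value has a replicate, and "higher" and "lower" describe these arrays. Of the 43379 spots other than controls, 64.7% with EGFP and 67.2% with Pax6 were well above background by the scanner software's own rule, and a probe that did not reach it is called "near background" or not well above it. None was saturated. Pax6 itself differed little, with signals of 557 and 822 (1.27-fold), and whether its probe reads the transgene is not known from the sources used, so it does not check the labels of the arrays, on which each direction rests. All 9 neural progenitor markers listed (Nes, Sox1, Sox2, Sox9, Msi1, Fabp7, Prom1, Slc1a3 and Vim) were above background on both arrays. So were 17831 of the 28778 gene names, and Sox1 (19.2 and 18.7) and Fabp7 (12.3 and 19.7) were at low signals. Nes and Slc1a3 were 3.17-fold and 12.9-fold lower on the Pax6 array. Sox2, which is also a doxycycline-driven factor in these cells, was 3.34-fold higher there. Whether a higher signal comes from more RNA per cell or from more cells of one kind cannot be told apart in such bulk samples.

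Among the surface NTPDases, Entpd1 was far higher on the Pax6 array and Entpd2 was slightly lower there. Entpd1 encodes the enzyme that takes ATP and ADP down to AMP with little release of ADP. Its brighter probe (chromosome 19, 40633542 to 40633601, plus strand, mm7) had a signal of 127 with EGFP and 1864 with Pax6, a log2 difference of 3.66 ± 0.21. Its other probe (40634549 to 40634608) read 31.9 and 535, a difference of 3.85 ± 0.23 or 14.5-fold, so the 2 probes differed by less than the error of either. Entpd1 ranked at 4 from the top of the 17831 genes measured on both arrays. Exons and other annotation are not stated for probes here, because no annotation of build mm7 was used.

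Entpd2, whose enzyme prefers ATP and so lets ADP build up, had 1 probe (chromosome 2, 25408528 to 25408587, plus strand). It read 52.4 with EGFP and 46.4 with Pax6, a log2 difference of -0.39 ± 0.22, or 1.31-fold lower. That difference exceeds the measurement error, but 87.0% of genes measured on both arrays had a higher one and it has no replicate. With normexp background correction it was -0.12.

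The NTPDases of the secretory pathway were close on the arrays. Entpd4 encodes an enzyme of the Golgi and lysosomal membranes. Its brighter probe (chromosome 14, 64228679 to 64228738) read 840 with EGFP and 901 with Pax6, a log2 difference of -0.11 ± 0.20, and its other probe read 47.7 and 60.3, a difference of 0.12 ± 0.22. The 2 probes thus had opposite signs, each within its error, and their mean was 0.00. RefSeq lists a close copy, Entpd4b, on the same chromosome, and whether the probes read both was not tested.

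Entpd5 encodes a UDPase of the endoplasmic reticulum that serves the folding of glycoproteins. Its probe (chromosome 12, 82376861 to 82376920, minus strand) read 362 with EGFP and 358 with Pax6, a log2 difference of -0.23 ± 0.20. Entpd6, whose enzyme sits in the Golgi and is partly secreted, had 3 probes on chromosome 2. The brightest (150512100 to 150512159) read 348 and 366, a difference of -0.14 ± 0.20, and the other two differed by -0.20 ± 0.22 and 0.01 ± 0.21. The probes of Entpd5 and Entpd6 stayed within 1.17-fold on the scaled values.

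Of the 3 NPP genes chosen here, Enpp1 was higher on the Pax6 array with signal on both arrays, and Enpp2 and Enpp3 were clear of background only with Pax6. Enpp4 and Enpp5, given further on, were not higher. Enpp1 encodes the main enzyme that makes pyrophosphate from ATP outside the cell, and is known for holding back mineral deposition. Its 1 probe (chromosome 10, 24392352 to 24392411, minus strand) read 548 with EGFP and 7522 with Pax6, a log2 difference of 3.57 ± 0.20. It came directly after Entpd1 in the ranking of genes measured on both arrays.

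Enpp2 encodes autotaxin, a secreted enzyme that makes lysophosphatidic acid from lysophospholipids and acts little on nucleotides in the body. Its main probe (chromosome 15, 54899174 to 54899231, minus strand) read 9.83 with EGFP, not well above background, and 119 with Pax6. The dim signal was set at the lowest signal of any probe well above background there, 10.3, which made the log2 difference at least 3.31. A further probe, named from a cDNA clone (54933539 to 54933598), stayed near background on both arrays, with signals of 7.60 and 2.41. It lies within the same gene name but did not follow the main probe, and which transcripts it reads is not stated in the files.

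Enpp3 encodes an NPP enzyme also known as CD203c, a surface marker of basophils and mast cells. Of its 3 probes on chromosome 10, the one standing for the gene (24526118 to 24526177, minus strand) read 2.71 with EGFP and 52.9 with Pax6, and was at least 4.41-fold higher with Pax6. The probe beside it (24525512 to 24525571) read 5.75 and 22.8, at least 1.90-fold higher. The remaining probe (24570381 to 24570440) was near background on both arrays, at 2.54 and 6.72. Enpp3 was thus well above background by 2 of its 3 probes on the Pax6 array and by none on the EGFP array, and a probe seen on 1 array only can give no other direction. With normexp background correction, which adds an offset of 50 to every signal, the difference of Enpp3 was 0.81, below 2-fold, and that of Enpp2 was 1.26.

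Nt5e, which completes the path from ATP to adenosine, was 1.54-fold higher with Pax6. Its brighter probe (chromosome 9, 88472705 to 88472764, plus strand) read 787 with EGFP and 1403 with Pax6, a log2 difference of 0.62 ± 0.20. The other (88470130 to 88471096, a span of 967 bases for the probe in the genome) read 20.7 and 39.9, a difference of 0.73 ± 0.29. Both probes were higher on the Pax6 array, and 95.5% of genes measured on both arrays had a lower difference than Nt5e, counted with the sign.

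**Figure D2:**
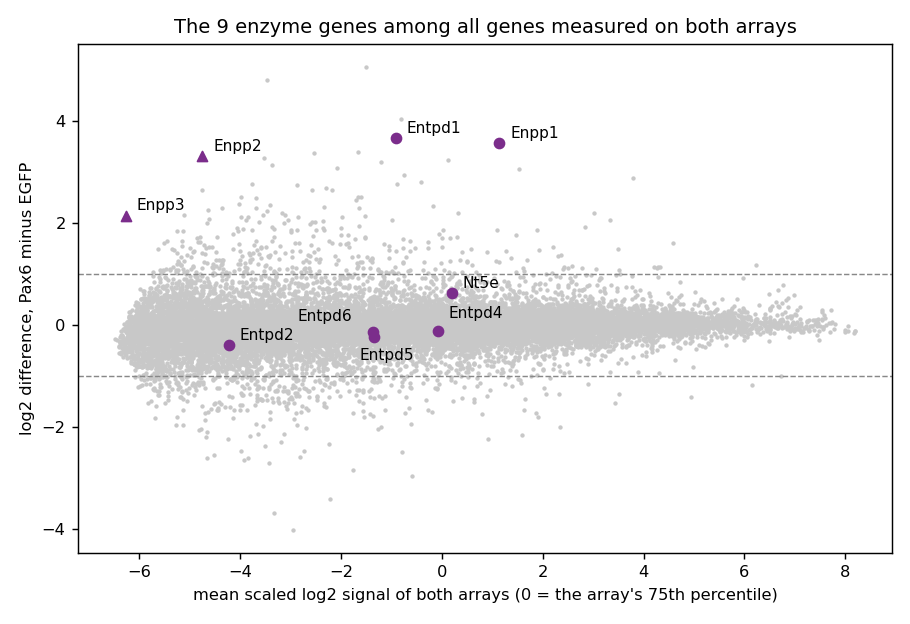
Log2 difference between the arrays (Pax6 minus EGFP) against the mean scaled log2 signal, for the 17831 genes measured on both arrays (grey) and the 9 enzyme genes (purple); triangles are lower bounds and dashed lines mark 2-fold. Entpd1 and Enpp1 lie at the upper edge, and the Entpd genes of the secretory pathway lie near 0.

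With 2 arrays the pattern of a gene is a single difference, so the genes most like Entpd1 are those next to it in the ranking. Next above it, among genes with a current symbol, came Cxcl14, a chemokine gene (121 and 2291, a log2 difference of 4.03 ± 0.21), and Fbln5, an elastic fibre gene (14.7 and 472, 4.79 ± 0.31). Next below came Enpp1 and then Masp1, a protease gene of the lectin pathway of complement (82.6 and 1009, 3.40 ± 0.21). In all, 13 genes measured on both arrays were at least 8-fold higher with Pax6, Entpd1 and Enpp1 among them.

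Sequences before the transcription starts are given for the genes whose signals stood furthest apart, because Entpd1, Enpp1 and Enpp3 were all higher with Pax6. They are the 250 bases before each start in RefSeq on GRCm38.p6, another build than the array's. The promoter table matched 7 of the 9 genes, in 9 windows. It held no entry for Entpd4 and Enpp2. Capitals mark motifs searched on both strands. One is the GC box, spelled GGGCGG. Another is the CCAAT box, spelled as its name. The last is the TATA box, spelled TATAAA. Entpd1 has 2 starts in RefSeq, and the arrays do not say which was used.
Entpd1 first start, chr19:40612116-40612365, plus strand: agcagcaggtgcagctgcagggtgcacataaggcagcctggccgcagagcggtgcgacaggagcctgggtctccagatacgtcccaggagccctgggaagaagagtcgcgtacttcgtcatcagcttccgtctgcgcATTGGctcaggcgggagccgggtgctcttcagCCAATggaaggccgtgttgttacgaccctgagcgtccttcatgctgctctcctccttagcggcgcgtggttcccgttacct
Entpd1 second start, chr19:40659520-40659769, plus strand: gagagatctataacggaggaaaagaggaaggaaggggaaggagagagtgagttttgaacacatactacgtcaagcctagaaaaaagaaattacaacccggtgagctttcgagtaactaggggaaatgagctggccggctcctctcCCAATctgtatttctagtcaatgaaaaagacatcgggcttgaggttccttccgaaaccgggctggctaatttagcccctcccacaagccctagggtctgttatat
Enpp1, chr10:24712160-24712409, minus strand: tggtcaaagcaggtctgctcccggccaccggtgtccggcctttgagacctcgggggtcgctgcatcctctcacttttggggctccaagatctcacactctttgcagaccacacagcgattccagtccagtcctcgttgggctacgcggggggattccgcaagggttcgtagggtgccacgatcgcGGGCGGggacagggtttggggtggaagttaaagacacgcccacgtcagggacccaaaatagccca
Enpp3, chr10:24836196-24836445, minus strand: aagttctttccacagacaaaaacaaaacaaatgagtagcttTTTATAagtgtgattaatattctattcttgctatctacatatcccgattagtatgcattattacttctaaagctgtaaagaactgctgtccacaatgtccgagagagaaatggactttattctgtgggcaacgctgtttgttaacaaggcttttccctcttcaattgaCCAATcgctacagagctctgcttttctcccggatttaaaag

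The windows of these genes did not share one makeup. The first Entpd1 start has 18 CpG dinucleotides in its window and Enpp1 has 17, above the upper quartile of 16 over all 32851 windows of this length. The second Entpd1 start has 8 and Enpp3 has 5, near the median of 6. Both Entpd1 windows hold a CCAAT box, at 113 and 81 bases before the first start and 105 before the second. The one at 113 is in the reverse direction. Enpp3 holds a CCAAT box at 41 bases. A CCAAT box was found in 33.8% of all windows. Enpp1 holds 1 GC box, 65 bases before its start, where 32.7% of all windows hold one, and no TATA box or CCAAT box. Enpp3 holds a TATA box in the reverse direction 209 bases before its start, where 12.4% of all windows hold one. Nt5e, within 2-fold on the arrays, has 4 GC boxes in 2 overlapping pairs, all in the reverse direction, and 21 CpG. These matches are letters in a window and not sites shown to be bound.

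Enpp1 and Enpp3 lie side by side on chromosome 10, their probes 134 kb apart. Of the 6 genes above background within 500 kb of the Enpp1 probe, Enpp3 was the only one at least 2-fold higher with Pax6. Its direction was fixed by the filter, as it was well above background only with Pax6. Ccn2, a matricellular growth factor gene at 43.0 kb on the other side, read 419 with EGFP and 303 with Pax6, a log2 difference of -0.69 ± 0.20. Moxd1, a monooxygenase-like gene at 339 kb, read 120 and 60.1, 2.32-fold lower. Arg1, Med23 and Stx7 were within 2-fold. The higher signal was thus not seen across the surrounding genes, whose median with Enpp3 included was -0.09.

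Around Entpd1, 1 of 11 genes above background within 500 kb was at least 2-fold higher, Blnk, an adaptor gene of B cell receptor signalling, which read 11195 and 28076 (2.16-fold). Their median was 0.08. Around Enpp2, 1 of 6 was at least 2-fold higher, Ccn3, another matricellular gene (57.8 and 164, 2.45-fold). Around Nt5e and Entpd6 none of 6 and none of 11 genes reached 2-fold. Of the 48 genes around Entpd2, the 13 around Entpd4 and the 20 around Entpd5, 1, 1 and 2 passed 2-fold downward and none upward. Of the 2 around Entpd5, Bbof1 (20.0 and 9.37) was well above background only with EGFP, so the filter fixed its direction. The other, Ltbp2, was at low signals (26.2 and 14.9). Over all genes 2.35% passed 2-fold upward and 2.43% downward, and nothing is read from these small neighbour counts.

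**Figure D3:**
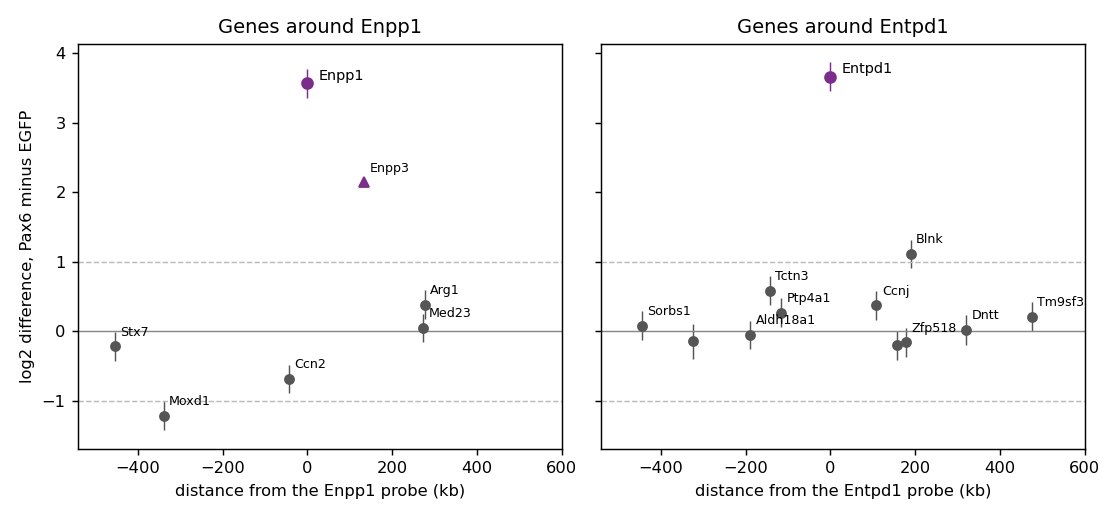
Log2 difference (Pax6 minus EGFP) of genes within 500 kb of the Enpp1 probe (left) and the Entpd1 probe (right) against distance in kb, on the array design's coordinates. Bars are the measurement error, the triangle is a lower bound, dashed lines mark 2-fold, and purple marks the enzyme genes. Entpd1 and Enpp1 stand above every neighbour as drawn, but Enpp3 is drawn at its lower bound and could lie higher.

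Other genes of nucleotide handling and signalling were read from a list by role. Of 69 such genes listed, 65 had a probe, 48 were above background on at least 1 array, 1 was at least 2-fold higher with Pax6 (background 2.35%), 1 was at least 2-fold lower (background 2.43%) and 46 met neither rule. The 2 are 4.17% of the 48, near the 4.77% over all genes, so the count is no result about these genes. Lpar3 (1.94-fold higher), Slc28a3 (1.93-fold lower), Slc17a9 (1.75-fold lower) and Panx1 (1.67-fold higher) lay within 2-fold in the values as reported. The median difference of the 48 was 0.04, and the list was written with results of these arrays known.

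Further enzymes of the same families and other phosphatases had 12 of 18 genes with a probe above background, and none reached 2-fold. The brightest were the genes of intracellular nucleotidases, Nt5c (22263 and 25749, which differed by less than 0.20 after scaling) and Nt5c3 (5141 and 6825, 1.14-fold). Of the remaining Entpd and Enpp genes, which were chosen after their values were seen, Entpd7 differed by 0.20, Enpp4 by -0.10 and Enpp5 by -0.62. Entpd3, Entpd8, Enpp6 and Enpp7 were near background on both arrays. Alpl, the gene of tissue-nonspecific alkaline phosphatase, which splits pyrophosphate and AMP, was at a low signal on both (32.1 and 26.6).

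Receptors for the substrates and products gave no shared direction. Of the adenosine receptor genes, Adora2a (600 and 509) differed by -0.45 ± 0.20 and Adora2b (475 and 652) by 0.24 ± 0.20. Adora1, named like the other genes here outside the list's brightest after its value was seen, differed by -0.08 (0.00 after scaling by the median), and Adora3 was near background on both arrays. The P2X channel genes had 5 of 7 above background, none of them 2-fold different. P2rx4 read 434 and 338, a difference of -0.58 ± 0.20, and P2rx7 differed by -0.15. Among the P2Y receptor genes, P2ry1, a receptor for ADP, differed by -0.27 ± 0.20 and P2ry2, a receptor for ATP and UTP, by 0.28 ± 0.20. P2ry6, a receptor for UDP, read 17.3 with EGFP and 7.71 with Pax6, at least 2.16-fold lower. It was not well above background with Pax6, so the filter fixed its direction. The other 5 were near background on both arrays.

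None of the 9 genes above background that handle adenosine reached 2-fold. Of these 8 were below 0, Pnp and Slc29a1 by less than their measurement error, and the median was -0.27. Over all genes measured on both arrays 53.7% were below 0 and 46.3% above, and nothing particular to the list is read from its count. Adk, the gene of adenosine kinase, differed by -0.40 ± 0.20 and Slc29a1, an equilibrative nucleoside transporter gene, by -0.14 ± 0.20. The lowest was Slc28a3, a concentrative nucleoside transporter gene at a low signal (20.4 and 12.3), at -0.95 ± 0.35. The count below 0 was also 8 under the 3 other scalings and with normexp background correction.

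Of the ATP release genes, Panx1, which encodes a channel for ATP, read 3272 with EGFP and 6322 with Pax6, a log2 difference of 0.74 ± 0.20, and Gja1, a gap junction gene, differed by 0.20 ± 0.20. Slc17a9, the gene of the vesicular nucleotide transporter, went the other way at -0.81 ± 0.20. Of the 5 genes of pyrophosphate and mineral handling none reached 2-fold, and their median was 0.36. That median is the lower bound of Phospho1, which had signal above background only with Pax6, so its sign was fixed by the filter. Spp1, the gene of osteopontin, differed by 0.43 ± 0.20, the phosphate transporter gene Slc20a1 by 0.24 ± 0.20, and Ank, whose protein is needed for pyrophosphate outside the cell, by 0.34 ± 0.20.

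Downstream of autotaxin, 7 of 8 genes for lysophosphatidic acid receptors and lipid phosphatases had differences above 0 (8 after scaling by the median and 6 with normexp background correction), with a median of 0.12, a count from which nothing particular to the list is read. Plpp3, whose enzyme breaks down lysophosphatidic acid at the cell surface, read 2722 and 6426, 2.03-fold higher (1.03 ± 0.20). Lpar3 was at 0.96 ± 0.25 and Lpar1 at 0.37 ± 0.20, and the brightest, Lpar6, at 0.04 ± 0.20. With normexp background correction none of the 48 pathway genes was 2-fold different.

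**Figure D4:**
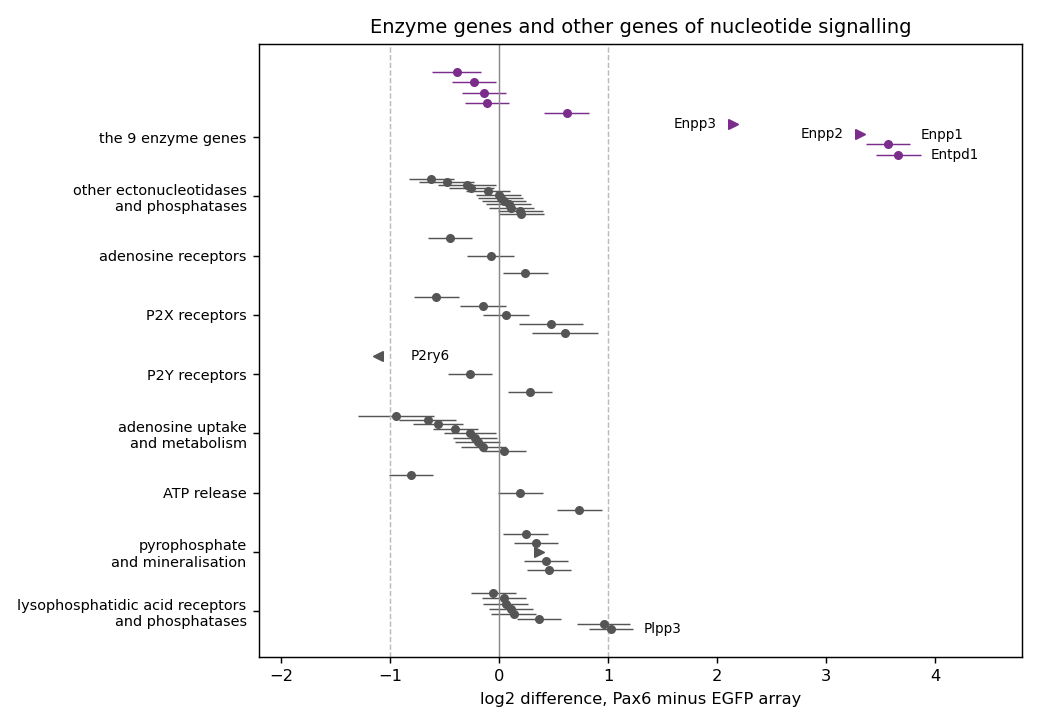
Log2 difference (Pax6 minus EGFP) of the 9 enzyme genes (purple) and of 48 other genes of nucleotide handling and signalling by role (grey); bars are the measurement error, arrowheads are lower bounds and dashed lines mark 2-fold. Outside the enzyme genes, Plpp3 and P2ry6 pass the 2-fold lines.

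Entpd1, Nt5e and Enpp3 are also known from blood cells, vessels and mesenchymal cells, so markers of these were read on the same arrays. Of 6 microglia and blood markers (Ptprc, Aif1, Cx3cr1, Csf1r, Itgam and Tyrobp), none was well above background with EGFP and 1, Csf1r, on the Pax6 array, with a signal of 13.4. Of 6 endothelial markers, Tek was above background on both arrays (17.0 and 22.4) and Kdr on the Pax6 array (11.8), and Pecam1, Cdh5, Tie1 and Emcn on neither. Of 7 oligodendrocyte lineage markers 4 were above background, all 4 lower on the Pax6 array, with Mbp 2.10-fold lower and Olig1, Olig2 and Mog on neither array.

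Fibroblast markers differed in both directions, more of them higher on the Pax6 array. Of 7, 4 passed 2-fold upward with Pax6 (Fap, Dcn, Pdgfra and Col3a1), 2 passed it downward (Col1a1 and Thy1), and Lum met neither rule. Over all genes the shares were 2.35% upward and 2.43% downward. The list was chosen with earlier results known, so nothing is read from its count. Fap and Lum were well above background only with Pax6 and Thy1 only with EGFP, so the filter fixed their directions. The summed signal of the 7 markers, each array divided by its 75th percentile, was 4.49 with EGFP and 16.2 with Pax6. Most of it came from Col3a1 (3152 and 13889). Dcn read 184 and 1644. The part of these markers in the differences of Entpd1, Enpp1, Enpp2 and Enpp3 was not tested.

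The differences of Entpd1 and Enpp1 passed 2-fold under each of 8 other ways of processing, between 3.19 and 3.76 for Entpd1 and between 3.45 and 3.65 for Enpp1. Enpp2 ranged from 1.26 to 3.39 over 7 and Enpp3 from 0.81 to 4.07, and neither was well above background on the EGFP array. Nt5e stayed between 0.62 and 0.70, and Entpd2, Entpd4, Entpd5 and Entpd6 stayed within 2-fold under all 8.

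**Figure D5:**
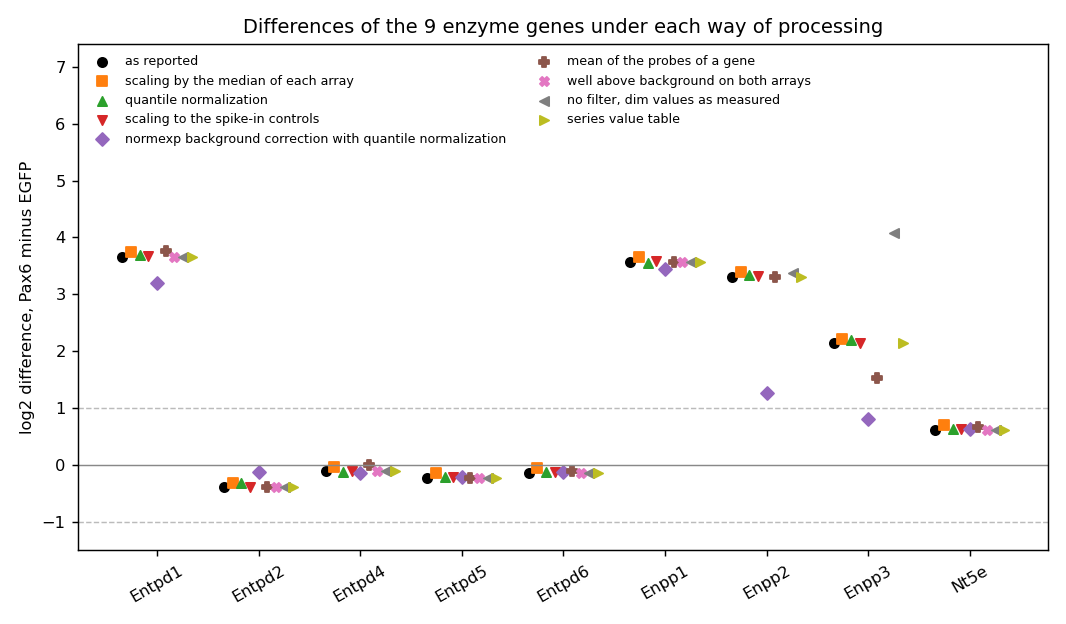
Log2 difference (Pax6 minus EGFP) of each enzyme gene as reported (black) and under 8 alternatives (other symbols); dashed lines mark 2-fold. Symbols of Entpd1 and Enpp1 lie close together, those of Enpp3 are spread from 0.81 to 4.07, and a gene not measured on both arrays has no symbol for the filter that asks for signal on both.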

How the data were processed

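Total RNA of 2 lines was hybridised to 1 Agilent mouse array each, in 1 colour (Cy3). Per the labels' protocols, ISOGEN was used for the extraction and a linear amplification kit for the labelling. Per the file headers, spots were quantified by Agilent Feature Extraction 10.7.3.1. Its processed intensity, as deposited, has the background subtracted and a trend across the slide removed, and is not scaled between arrays. Deposited flag columns (unit other) say which spots the software took as outliers, as saturated or as well above background (13.0 SDs). The deposited series table equals the scanner intensity values. Both arrays lay on 1 slide scanned on 1 day.

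After 96 outlier spots were left out, log2 signals minus each array's 75th percentile were averaged per probe (41168 probes), and a gene took its brightest probe. Names were updated through accessions for 55.7% of probes. A probe above background on 1 array gives a bound ("at least") against the higher of the dim value and the lowest probe signal called well above background (10.3 with EGFP, 9.30 with Pax6). A bound under 1-fold counts as 0. Genes were counted at 2-fold or more, with no test.

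The members, the lists and the window around genes were chosen with earlier results of these data known. Named genes are all members, pathway genes at 2-fold, the 2 brightest per sub-list, and the 2 genes on either side of Entpd1. Other genes were picked with their values in view. As alternatives, the arrays were scaled by the median, by quantile normalization and to 8 spike-in controls. Normexp (offset 50, limma 3.58.1 in R 4.3.3), the mean of a gene's probes, 2 other filters, the series table and a 3-fold rule were tried too. Steps ran in Python 3.11.15 with numpy 2.4.6 and pandas 2.3.3, and were tested on simulated data.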

Additional observations from a re-analysis of the deposited data

How the results depend on the processing

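The number of enzyme genes at least 2-fold different was 4 as reported and 2 when genes had to be well above background on both arrays, which removes Enpp2 and Enpp3. It lay between 3 and 4 under the other alternatives, with Enpp3 within 2-fold under normexp background correction. The number of other pathway genes was 2 as reported, 1 with the filter on both arrays, 4 without a filter, 0 with normexp background correction and 0 at 3-fold. It was 3 after scaling by the median and after quantile normalization, with 2 higher and 1 lower in each. Over all genes it was 919 as reported, 284 with normexp background correction, 2538 without a filter and 268 at 3-fold. Entpd1 and Enpp1, measured on both arrays, kept their sign under each alternative. For Enpp2 and Enpp3 the filter on either array fixed the sign, so its constancy is no check. Without a filter, with dim values as measured, their differences were 3.38 and 4.07. Enpp2 and Enpp3 have no value under the filter on both arrays. The series table gave the same values. The signal over background limits Enpp2 and Enpp3, for which the EGFP array gives only a bound. No paired analysis was possible because each group has 1 array.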
